A study of Homo sapiens with 3 samples.

Results

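Both resistant lines of C4-2B prostate cancer cells were set together against the parental line they came from. The quantity described is the mean of the C4-2B MDVR and C4-2B AbiR arrays minus the C4-2B parental array, gene by gene, and in particular the genes on which both resistant arrays stood on the same side of parental by a like amount. The series holds 3 Affymetrix HG-U133 Plus 2.0 expression arrays, 1 for each line, and all of them entered. C4-2B is an established human line of castration-resistant prostate carcinoma derived from LNCaP. Parental cells were grown in RPMI medium with fetal bovine serum and no drug, and were passaged alongside the resistant lines. C4-2B MDVR cells had been cultured long-term in enzalutamide (MDV3100) and were kept in 20 µM of it, and C4-2B AbiR cells were kept in 10 µM abiraterone acetate. The drugs were in the medium of the resistant lines, so that a lasting difference of the line and the presence of drug cannot be told apart. Each line was 1 culture on 1 array, so that no replicate error is known and nothing was tested. Both differences were taken from the same parental array, so that any error of that array enters both with the same sign.

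In prostate cancer cells the androgen receptor, a steroid-activated transcription factor, drives a set of secreted proteases, transporters, lipid enzymes and co-chaperones. Enzalutamide blocks androgen binding to the receptor, and abiraterone, the active form of abiraterone acetate, inhibits CYP17A1, the enzyme that commits steroids to androgen synthesis. The drugs therefore act on the same pathway at different steps, and the comparison asks which expression differences from parental the lines kept under either drug have in common.

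The authors deposited log2 RMA values that had been centred for each probe set, so that a value states how far an array lay from the centre of its probe set and holds no expression level. Of 54675 probe sets, 41097 were annotated to a single gene, and these read 19775 genes. A gene's value is the mean of its probe sets, and ± marks the SD between them, which is a technical spread and no replicate error. The 45 control probe sets for bacterial RNA, which human cells do not make, had a mean difference between the resistant arrays and parental with an SD of 0.10 on the log2 scale and at most 0.23 in size. On either line the largest difference of such a control was 0.35. A shared gene was defined as one at least 2-fold from parental, or 1 on the log2 scale, in the same direction on both resistant arrays.

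By this rule 110 genes were higher in both resistant lines, 0.556% of the genes measured, and 113 genes were lower in both, 0.571% of the genes measured. These shares are the background against which the counts in each gene group below are read. Of the 110 higher genes, 35 were at least 3-fold higher on both arrays, 19 at least 4-fold and 5 at least 8-fold. Of the 113 lower genes, 45 were at least 3-fold lower on both arrays, 28 at least 4-fold and 8 at least 8-fold. The median of the mean difference was 1.61 for the higher genes and −1.76 for the lower genes, and 0.017 over all genes. MDVR was further from parental than AbiR for 63 of the higher genes and for 66 of the lower genes.

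The size of the difference varied between the lines. The 2 differences lay within 1.5-fold of each other for 71 of the 110 higher genes (64.5%) and for 79 of the 113 lower genes (69.9%), against 93.3% of all genes. They lay within 1.1-fold for 21 and 40, and the share of all genes within 1.1-fold was not counted. The median gap between the lines, without its sign, was 0.40 for the higher genes, 0.25 for the lower genes and 0.16 over all genes, most of which lay near 0 on both arrays. A gap of over 2-fold was found for 17 higher and 16 lower genes. The mean of both lines was at least 2-fold higher than parental for 221 genes (1.12%) and at least 2-fold lower for 186 genes (0.941%). Of these, 111 higher and 73 lower genes were not shared, and MDVR was the further array for 85 and 59 of them.

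**Figure D1:**
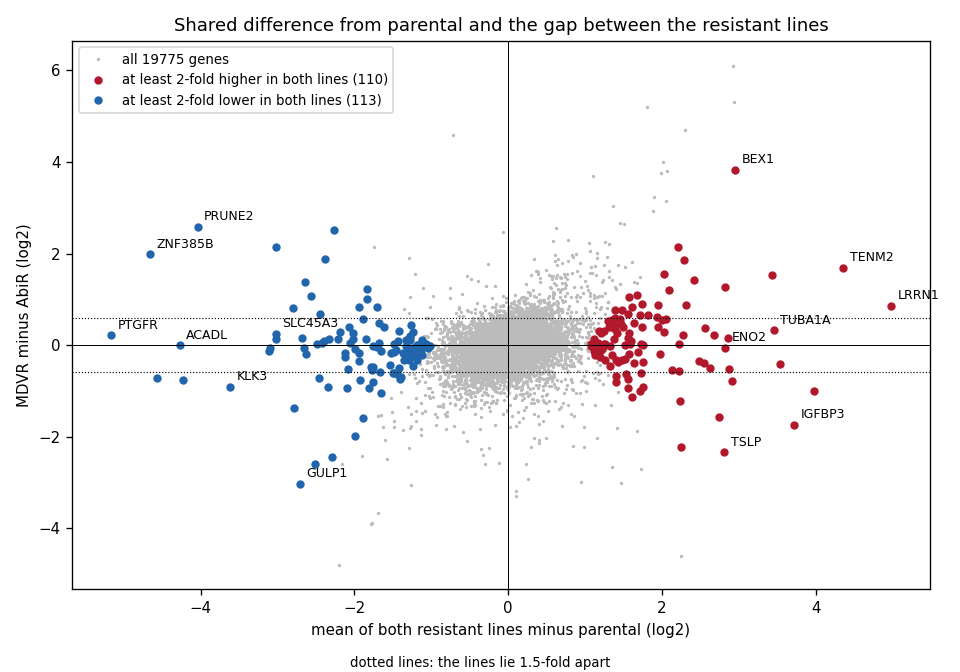
Each point is 1 of 19775 genes, with the mean of both resistant lines minus parental on the x axis and MDVR minus AbiR on the y axis, both in log2 units and from 1 array per line. The 110 red and 113 blue genes were at least 2-fold from parental on both arrays, and most lie between the dotted lines that mark a gap of 1.5-fold, whereas BEX1, TSLP, PRUNE2 and GULP1 lie well outside.

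Around the 2-fold line the choice of genes was a matter of small margins. The last genes inside it were NLGN1 at 1.003 in MDVR and 1.81 in AbiR among the higher genes, and H2AC6 at −2.99 and −1.001 among the lower genes. The first outside it were C1R at 2.36 and 0.996, and DLX1 at −0.988 and −1.20. Among shared genes, 66 of the higher and 40 of the lower were read by 1 probe set. Of the 44 higher genes with 2 or more probe sets, all probe sets pointed the same way in both lines for 37, and every probe set was at least 2-fold away for 12. Of the 73 such lower genes, the counts were 67 and 26.

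With each gene as the mean of its probe sets, the 4 lists of genes that androgen induces had the lowest medians of all lists. Of 9 measured secreted proteins of this kind, 5 were shared lower and none was shared higher, and the list median of the mean difference was −1.70. That median depended on the choice of probe sets. It was −0.034 over the 6 genes left without probe sets that may cross-hybridize, among which KLK3 was not measured, and −2.31 with the most variable probe set for each gene. Probe sets were put in this class by the suffix _s_at, _x_at or _a_at alone, and whether they bind other genes was not checked. The other 3 lists had medians of −0.31, −0.88 and −0.64 without such probe sets, for membrane proteins, metabolic enzymes and regulators, and the median of all genes was then 0.012. KLK3 encodes prostate-specific antigen, a kallikrein protease that serves as the blood marker of prostate cancer. Its centred value was 3.22 on the parental array, −0.84 on MDVR and 0.058 on AbiR. The mean difference was −3.62, a 12.3-fold lower level, made up of −4.07 ± 3.23 in MDVR and −3.17 ± 2.36 in AbiR over 3 probe sets. The spread came from 1 probe set that hardly differed, at −0.35 and −0.44, beside a pair at −6.24 and −5.61 in MDVR and −4.48 and −4.57 in AbiR.

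KLK2, the neighbouring kallikrein gene, was 1.65 on the parental array, 0.37 on MDVR and −0.46 on AbiR. Its differences were −1.29 ± 1.19 and −2.12 ± 1.93 over 4 probe sets, 1 of which differed slightly the other way in both lines. MSMB, the seminal plasma protein beta-microseminoprotein, was 1.86 on the parental array, −0.39 on MDVR and −0.14 on AbiR, so that the resistant arrays lay close together and far from parental. ADAMTS1, a secreted metalloprotease, differed by −2.03 and −3.11, and AZGP1, zinc-alpha-2-glycoprotein, by −1.02 and −3.53. KLK4 and TGM4, at 0.31 and 0.085 in MDVR and −0.72 and −0.041 in AbiR, were not among the shared genes.

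The promoter of KLK3 is given because its androgen-responsive element is a textbook example. In the RefSeq promoter table of build GRCh38.p14, the 250 bases before its start hold the letters AGAACA, a core motif bound by the androgen and glucocorticoid receptors, which is in capitals.
KLK3, chr19:50854665-50854914, plus strand: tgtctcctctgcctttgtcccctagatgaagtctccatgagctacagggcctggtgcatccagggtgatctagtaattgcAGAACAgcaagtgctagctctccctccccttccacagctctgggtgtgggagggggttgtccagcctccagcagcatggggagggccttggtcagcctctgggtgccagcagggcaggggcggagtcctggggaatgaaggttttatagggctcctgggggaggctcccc
This motif was counted on both strands in a window from 250 bases before to 50 bases after each start. It was found in 13 of 91 promoters of shared lower genes (14.3%), in 9 of 87 of shared higher genes (10.3%) and in 11.3% of the 15384 promoters of all measured genes in the table. The longer form, in which TGT follows AGAACA after 3 further bases, was in none of the promoters of shared genes and in 0.189% of all.

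Among 11 androgen-induced membrane proteins and transporters, 3 were shared lower, with a list median of −0.31. SLC45A3, also called prostein, a transporter typical of prostate epithelium, was 3.03 on the parental array, 0.12 on MDVR and −0.12 on AbiR. PMEPA1, a membrane protein that restrains TGF-beta signalling, was 2.80 on the parental array, 0.41 on MDVR and −0.41 on AbiR. ABCC4, an exporter of cyclic nucleotides and drug conjugates, was 2.02, 0.13 and −0.13 in the same order. For each of the 3 genes the parental array stood apart by over 1.8 on the log2 scale from the nearer resistant array. The list was not uniform, since TMC5 was at 0.013 in the mean of both lines and STEAP4 at −0.13.

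Among 12 androgen-induced metabolic enzymes, 2 were shared lower, and the mean was below 0 for 11. ELOVL7, which elongates long saturated fatty acids, was 3.91 on the parental array, −1.01 on MDVR and −0.30 on AbiR, and its mean difference of −4.56 was the lowest on the list. INPP4B, a phosphoinositide phosphatase, differed by −1.33 ± 1.58 in MDVR and −1.33 ± 1.44 in AbiR over 4 probe sets. ABHD2, a lipase, was at −2.31 in MDVR and −0.65 in AbiR and so was not shared.

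Of 16 androgen-induced regulators and chaperones, 5 were shared lower, with a list median of −0.55. FKBP5, a co-chaperone of HSP90 that binds steroid receptor complexes, was 1.85 on the parental array, −0.10 on MDVR and −0.23 on AbiR. Its differences of −1.96 ± 0.14 and −2.09 ± 0.14 came from 3 probe sets that lay close together. ZBTB16, a zinc finger repressor also known as PLZF, was 3.11, −0.058 and 0.058 on the 3 arrays. SNAI2, the repressor Slug of epithelial-mesenchymal transition, was 2.87, −0.25 and −0.20. ELL2, a factor of transcription elongation, was 2.59, −0.090 and −0.039, though 1 of its 4 probe sets differed by only −0.18 and −0.24. CENPN, a kinetochore protein, differed by −1.74 and −1.05. ZBTB16 and FKBP5 are targets of the glucocorticoid receptor too, and they were the only shared genes of the 11 measured on that list, whose median was −0.011. Its receptor gene NR3C1 was at 0.13 ± 0.18 in MDVR and 0.089 ± 0.075 in AbiR.

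Genes that androgen represses were few on the list. Of 9 measured, ACKR3, a scavenging chemokine receptor, and CAMK2N1, an inhibitor of the kinase CaMKII, were shared higher, at mean differences of 1.56 and 1.13. ACKR3 was read by 3 probe sets, 1 of which differed slightly the other way, at −0.045 in MDVR and −0.087 in AbiR. OPRK1 was at 1.63 in MDVR and 0.042 in AbiR, and UGT2B17 pointed in opposite directions, at −1.49 and 1.69. Of 16 coregulators of the androgen receptor measured none was shared, and the list median was −0.030. The androgen-responsive lists overlap other lists here and were chosen with earlier results on these arrays known, so that their direction is no independent evidence.

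**Figure D2:**
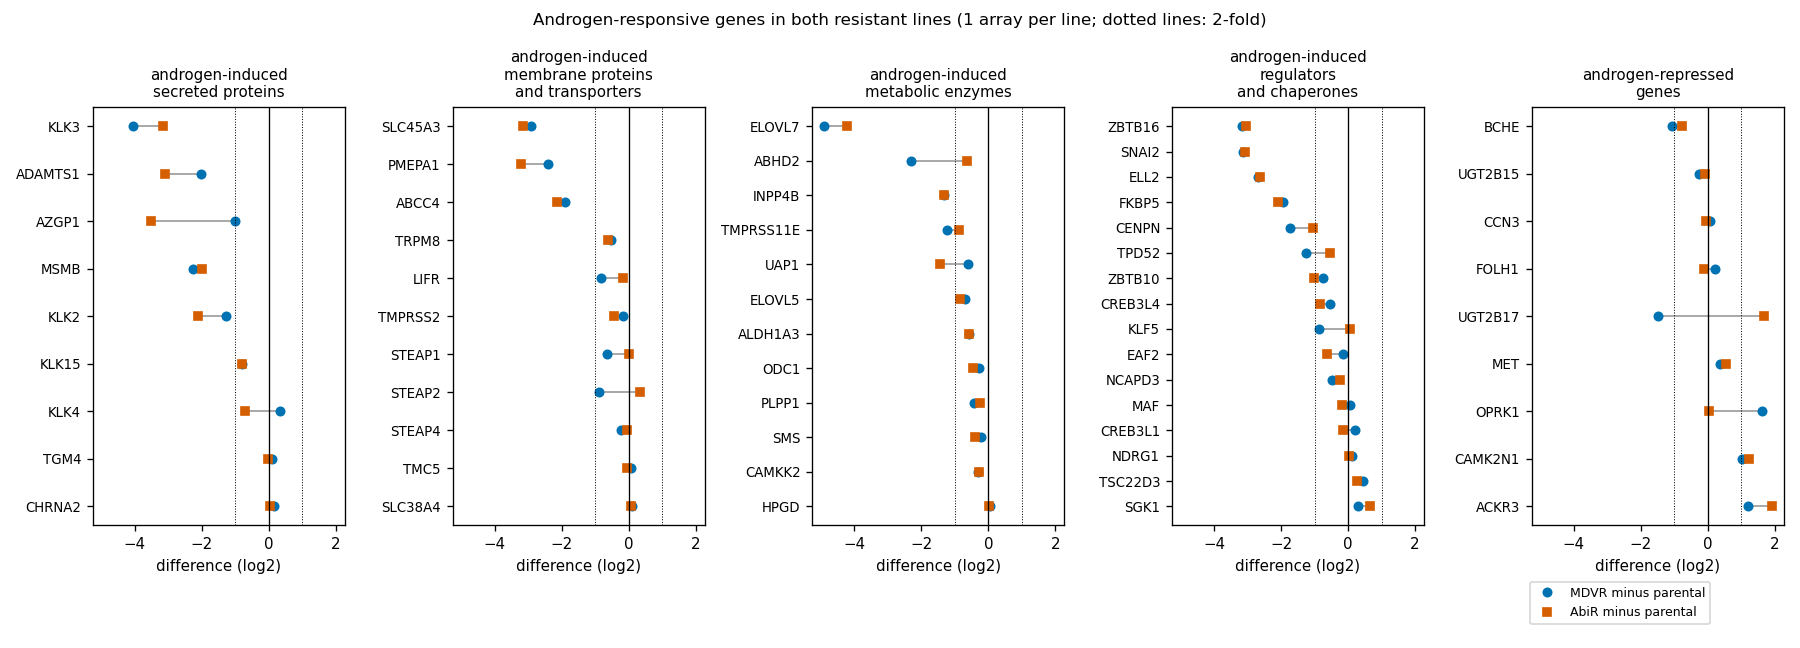
Each panel shows 1 list of androgen-responsive genes, with the difference from parental on the log2 scale for MDVR (circles) and AbiR (squares), 1 array per line, and dotted lines at 2-fold. KLK3, SLC45A3, ELOVL7 and ZBTB16 lie furthest left in their panels in the mean of both lines, and ACKR3 furthest right in the panel of repressed genes.

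The steroid pathway itself held 25 measured genes of synthesis and conversion, of which CYP11A1 alone was shared. This enzyme, which makes pregnenolone from cholesterol, was 1.0997 on the parental array, −0.011 on MDVR and −0.0022 on AbiR, with differences of −1.11 and −1.10. AKR1C3, which converts weak to strong androgens, illustrates a mean set by 1 line. It was 4.02 above parental in MDVR and 0.0055 in AbiR, and its sequence is close to that of AKR1C1 and AKR1C2, so that the copies are uncertain. Of 63 UGT, sulfotransferase and cytochrome P450 enzymes, CYP11A1, CYP4F8 and UGT2B28 were shared lower and none was shared higher. UGT2B28, an enzyme that conjugates steroids and has near-identical relatives, was at −2.12 and −1.77, and CYP4F8, a hydroxylase of prostanoids, at −2.02 and −1.95.

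The highest shared genes included several proteins of the cell surface. LRRN1, a neuronal membrane protein with leucine-rich repeats, was −4.98 on the parental array, 0.43 on MDVR and −0.43 on AbiR. Its mean difference of 4.98, or 31.5-fold, was the largest of the shared higher genes. TENM2, a teneurin of synaptic adhesion, was −4.10, 1.096 and −0.59, and AMIGO2, another leucine-rich repeat adhesion protein, was −2.86, 0.083 and −0.083. These 3 genes and NLGN1 were the shared higher members among 53 neuronal adhesion and leucine-rich repeat proteins, and the related teneurin TENM1 was shared lower at −1.51 and −1.41. The list median was 0.072, so that the bulk of the list lay where all genes lay.

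ATP1B1, the beta subunit of the sodium pump, was −2.01 on the parental array, 1.31 on MDVR and 1.72 on AbiR. FXYD5, a small protein that associates with the pump, was −2.44, 0.31 and −0.066. They were the 2 shared genes of the 11 measured pump subunits and FXYD proteins. ADRA2A, the alpha-2A adrenergic receptor that lowers cyclic AMP, was −3.43 on the parental array, 0.77 on MDVR and −0.77 on AbiR. It was the only shared gene of 41 receptors for adrenaline, dopamine, serotonin and acetylcholine. TSPAN7 was the only shared tetraspanin of 28, at 2.35 and 2.74. Of 21 cadherins, CDH12 and CDH18 were shared higher, at 1.22 and 1.14 in MDVR and 2.21 and 3.36 in AbiR.

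TUBA1A, an alpha-tubulin abundant in growing neurons, was −3.22 on the parental array, 0.40 on MDVR and 0.074 on AbiR, and was the only shared tubulin of 17. It was read by 1 probe set, which may cross-hybridize. ENO2, the neuron-specific enolase that is read as a neuroendocrine marker, was −2.80, 0.0026 and 0.055, with differences of 2.80 and 2.85. It was the only shared gene of 25 neuroendocrine markers and regulators, whose median was 0.0082. Other members were near parental, such as SYP, the vesicle protein synaptophysin, at −0.35 and −0.21, and SCG2 at 0.37 and 0.12. In the BEX and TCEAL families of small X-linked adaptor proteins, 3 of 12 genes were shared higher and all 12 had a mean above 0. The list median was 0.52 for the mean of both lines, 0.90 in MDVR and 0.26 in AbiR. BEX1 was at 4.86 in MDVR and 1.04 in AbiR, BEX5 at 3.45 and 2.19, and TCEAL2 at 2.24 and 1.63.

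**Figure D3:**
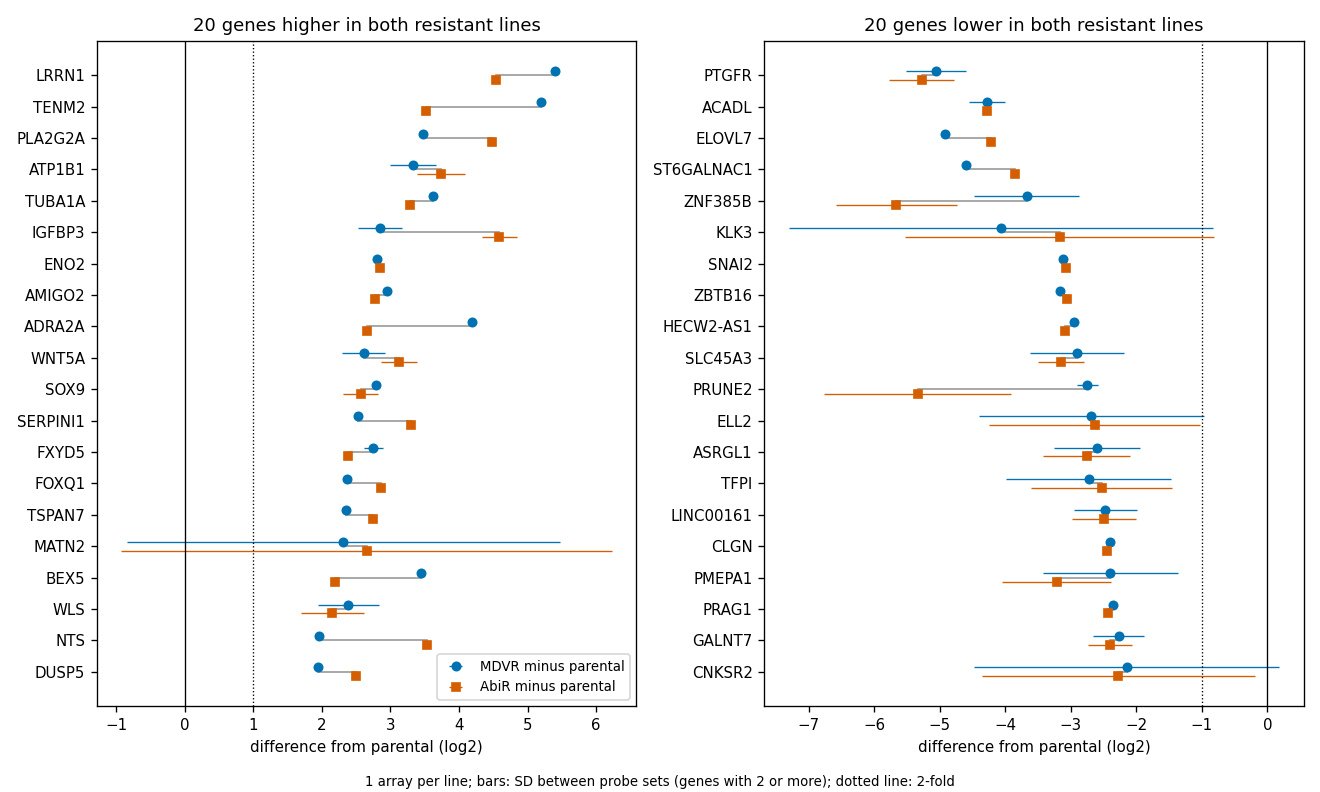
The 20 genes with the largest smaller difference in each direction are shown for MDVR (circles) and AbiR (squares) as log2 differences from parental, 1 array per line, with bars for the SD between probe sets where a gene had 2 or more. The points of ENO2, SOX9, ACADL, SNAI2 and CLGN nearly coincide, and the wide bars of KLK3, MATN2 and CNKSR2 come from probe sets that hardly differed beside others that differed strongly.

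Among secreted signals the IGF axis held shared genes in both directions. IGFBP3, the main carrier of IGFs in plasma, was −3.72 on the parental array, −0.87 on MDVR and 0.87 on AbiR, with differences of 2.85 ± 0.32 and 4.59 ± 0.26. The ligand gene IGF1 was at −2.79 ± 2.23 and −1.89 ± 1.24 over 5 probe sets, which ranged from −0.055 to −5.38 in MDVR. The receptor gene IGF1R was at −2.03 ± 1.86 and −1.86 ± 1.48 over 5 probe sets. The other 12 of the 15 measured genes of the axis were not shared, and IGFBP6 came next, at 0.87 and 0.39.

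WNT5A, a Wnt ligand that mostly signals without beta-catenin, was −1.31 on the parental array, 1.31 on MDVR and 1.82 on AbiR. The receptor gene FZD7 was at 1.55 and 1.16, and these were the 2 shared genes of 57 Wnt ligands, receptors and inhibitors. WLS, the carrier that takes Wnt proteins to the cell surface, was at 2.39 ± 0.44 and 2.15 ± 0.45. DKK1, a secreted Wnt inhibitor, was at 2.83 in MDVR and 0.18 in AbiR. NTS, the precursor of the peptide neurotensin, was −0.98, 0.98 and 2.54 on the parental, MDVR and AbiR arrays. SERPINI1, the protease inhibitor neuroserpin, was at 2.52 and 3.30, and SEMA3C, a secreted guidance protein, at 1.63 and 2.84.

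PLA2G2A and PTGFR stood at opposite ends of the list of prostanoid genes and were its only shared members of 25. PLA2G2A, a secreted phospholipase that frees fatty acids such as arachidonic acid from phospholipids, was −3.98 on the parental array, −0.50 on MDVR and 0.50 on AbiR. PTGFR, the receptor of prostaglandin F2-alpha, was 5.09, 0.037 and −0.18. Its mean difference of −5.16, or 35.8-fold, was the lowest of all shared genes, and both its probe sets were below −4.7 in both lines. Of 106 cytokines and chemokines, 4 were shared higher and none lower. TSLP, a cytokine of epithelia, was at 1.64 and 3.98, CCL20 at 2.69 and 1.49, LIF at 1.64 and 1.08, and CCL8 at 1.33 and 1.02.

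The neighbouring genes RLN1 and RLN2 encode relaxins, peptide hormones also made in the prostate, and both were shared higher. RLN1 was −1.05 on the parental array, 0.81 on MDVR and 0.041 on AbiR, and RLN2 was −0.83, 0.79 and 0.25. They were chosen after their values were seen, and each was read by 1 probe set, so that signal of near-identical copies cannot be told apart here. Their promoters are shown because the pair lies side by side and the windows are alike. A global alignment of the 250 bases before each start had 221 identical columns of 253, an identity of 87.4%. The capitals again mark AGAACA, which stands at different places, so that neither marked copy has a counterpart in the other window.
RLN1, chr9:5339877-5340126, minus strand: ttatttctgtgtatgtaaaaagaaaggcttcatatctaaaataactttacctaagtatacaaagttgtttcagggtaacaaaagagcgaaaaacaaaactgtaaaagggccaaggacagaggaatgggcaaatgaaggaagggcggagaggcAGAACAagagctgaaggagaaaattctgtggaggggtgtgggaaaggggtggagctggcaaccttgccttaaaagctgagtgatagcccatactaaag
RLN2, chr9:5304717-5304966, minus strand: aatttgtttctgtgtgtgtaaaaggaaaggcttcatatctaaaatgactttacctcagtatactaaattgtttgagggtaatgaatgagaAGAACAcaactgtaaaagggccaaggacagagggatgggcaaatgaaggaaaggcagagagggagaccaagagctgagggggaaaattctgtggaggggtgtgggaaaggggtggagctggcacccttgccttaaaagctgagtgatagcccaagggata

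Most shared genes on the lists of lipid and glycan enzymes were lower, with TM7SF2, a sterol reductase of cholesterol synthesis, as an exception at 1.11 and 1.42. ACADL, the long-chain acyl-CoA dehydrogenase of mitochondrial fatty acid oxidation, was 4.27 on the parental array, −0.0012 on MDVR and −0.0020 on AbiR. Its differences of −4.28 ± 0.27 and −4.28 ± 0.040 were the closest match in size among shared genes. That match arose in the mean of its probe sets, whose gaps had opposite signs. One was at −4.47 in MDVR and −4.30 in AbiR, and the other at −4.08 and −4.25. A signal at the array background in both resistant lines would also give matching differences, and the centred values cannot show whether this was so. ACADL was the only shared gene of 34 in fatty acid oxidation, where the median was 0.072. Among 25 genes of fatty acid synthesis and elongation, ELOVL7 and ELOVL2 were shared lower. The list of 62 sialyl-, fucosyl- and GalNAc-transferases also holds GCNT1, which adds GlcNAc instead. On it ST6GALNAC1, GALNT7 and GCNT1 were shared lower and none was shared higher. ST6GALNAC1, the enzyme that makes the sialyl-Tn glycan, was 4.23 on the parental array, −0.37 on MDVR and 0.37 on AbiR. GALNT7, which adds GalNAc to proteins, was 2.22, −0.048 and −0.18. Among 37 genes of amino acid metabolism, ASS1, which makes argininosuccinate, was shared higher at 2.20 and 1.29, and AADAT, an aminotransferase of the kynurenine pathway, was shared lower at −1.95 and −3.34.

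Other genes among the lowest 20 had varied roles. ZNF385B, a zinc finger protein, was 4.55 on the parental array, 0.88 on MDVR and −1.11 on AbiR. PRUNE2, the host gene of the prostate cancer RNA PCA3, was 4.04, 1.30 and −1.30, with AbiR 6.02-fold below MDVR. TFPI, the inhibitor of the tissue factor pathway of coagulation, differed by −2.73 ± 1.26 and −2.53 ± 1.07 over 5 probe sets. ASRGL1, an asparaginase-like hydrolase, was at −2.60 and −2.76, and CLGN, a chaperone of the endoplasmic reticulum, at −2.40 and −2.45. CNKSR2, a scaffold of the Ras pathway, was at −2.15 ± 2.33 and −2.28 ± 2.08, and its 3 probe sets ranged from −0.20 to −4.73 in MDVR. The RNA genes HECW2-AS1 and LINC00161 were at −2.95 and −2.47 in MDVR and −3.09 and −2.49 in AbiR.

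MAP kinase feedback genes were split. DUSP5, a nuclear phosphatase of ERK, was −2.22 on the parental array, −0.28 on MDVR and 0.28 on AbiR, and was the only shared higher gene of 37. The phosphatase DUSP4 was at −2.57 and −1.63, PHLDA1 at −2.10 and −2.79, and SPRY1, an inhibitor of receptor tyrosine kinase signalling, at −1.09 and −1.38, all shared lower. The list median was 0.041. Among transcription factors, SOX9 and FOXQ1 were the shared genes of 58 SOX and FOX factors. SOX9, a factor of progenitor and epithelial development, was −2.68, 0.11 and −0.11 on the 3 arrays, and FOXQ1, a forkhead factor, was −2.62, −0.25 and 0.25. No shared gene was found among 28 HOX genes, 37 nuclear receptors or 53 KLF, EGR, GATA and ETS factors.

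Interferon-stimulated genes had a median of 0.28 over 40 measured genes, with 32 above 0, and IFIT1 and IFI6 were shared higher. IFIT1, which binds RNA that lacks the host's cap methylation, was −1.95 on the parental array, 0.20 on MDVR and −0.20 on AbiR. IFI6, a small mitochondrial and endoplasmic reticulum protein, was −1.21, 0.13 and −0.13. BST2 was on the other side, at −0.97 and −0.37, and UBE2L6 was high in MDVR alone, at 3.52 against 0.28. Antigen presentation genes had a median of 0.24 with none of 40 shared, and a median of 0.11 over 30 genes without probe sets that may cross-hybridize. The interferon-stimulated response element core, read as GAAA, 2 further bases and GAAA on either strand, was in 7 of 87 promoters of shared higher genes (8.05%), in 3 of 91 of shared lower genes (3.30%) and in 2.94% of all promoters. The promoters of IFIT1 and IFI6 are shown because these hold the motif more than once, in capitals on either strand.
IFIT1, chr10:89392373-89392622, plus strand: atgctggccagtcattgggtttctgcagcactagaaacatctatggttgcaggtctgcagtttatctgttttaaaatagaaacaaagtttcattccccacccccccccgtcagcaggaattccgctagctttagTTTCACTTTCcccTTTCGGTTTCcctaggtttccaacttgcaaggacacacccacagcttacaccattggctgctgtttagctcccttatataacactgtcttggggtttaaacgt
IFI6, chr1:27672193-27672442, minus strand: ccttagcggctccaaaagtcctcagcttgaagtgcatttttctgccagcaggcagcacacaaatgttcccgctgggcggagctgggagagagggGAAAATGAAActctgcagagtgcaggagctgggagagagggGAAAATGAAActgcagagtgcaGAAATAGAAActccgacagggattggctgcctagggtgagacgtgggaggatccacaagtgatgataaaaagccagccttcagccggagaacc
The other shared higher genes with the motif were SIDT1, LRRC31, CDH18, TENM2 and TMEM140, named for the motif and not by their values.

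Groups of many small differences were also seen in the cell cycle and in proteostasis. Of 49 genes of the mitotic spindle and kinetochore, 45 had a mean below 0, against 46.1% of all genes, with a median of −0.22 and CENPN as the only shared gene. For DNA replication and nucleotide synthesis 40 of 47 were below 0, with a median of −0.17 and none shared. The replication inhibitor geminin, GMNN, had a mean difference of −0.86. Cyclins, kinases and checkpoint genes had a median of −0.14, with CCNA2, cyclin A2, at −1.18 and −0.93. Of 25 p53 targets, 21 were above 0, against 53.9% of all genes, with a median of 0.38 and none shared. The list median was smaller in each line by itself, at 0.24 in MDVR and 0.15 in AbiR. The median of the mean difference was 0.12 over 18 genes without probe sets that may cross-hybridize. The cell cycle inhibitor gene CDKN1A was at 1.05 and 0.51, and GADD45A at 1.60 and 0.67. Histone genes had a median of −0.27 over 57, with H2AC6, H2BC12L, H2BC6 and H2BC11 shared lower and MACROH2A2 shared higher. Replication-dependent histone genes are near-identical copies, and which copy was read is uncertain.

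The chaperones HSP70, HSP90, HSP40 and their regulators had a median of −0.19 over 55 genes, with 41 below 0. FKBP5 was the only shared gene there, and DNAJC1 and PPID, at mean differences of −1.05 and −0.96, followed. The unfolded protein response list had a median of −0.18 over 32 genes and none was shared. STUB1, the ubiquitin ligase that works with HSP70, was 0.085 on the parental array, −0.25 on MDVR and 0.044 on AbiR. Its differences of −0.33 ± 0.018 and −0.041 ± 0.0092 over 3 probe sets left a gap of 0.29. Over the bacterial controls the gap between the lines had an SD of 0.12 and was at most 0.34 in size. Of 113 enzymes of ubiquitin-mediated proteolysis, only MID1, a ligase of the TRIM family, was shared, at 1.12 ± 1.36 and 1.22 ± 1.36, and the list median was −0.045. None of 31 constitutive proteasome subunits was shared.

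**Figure D4:**
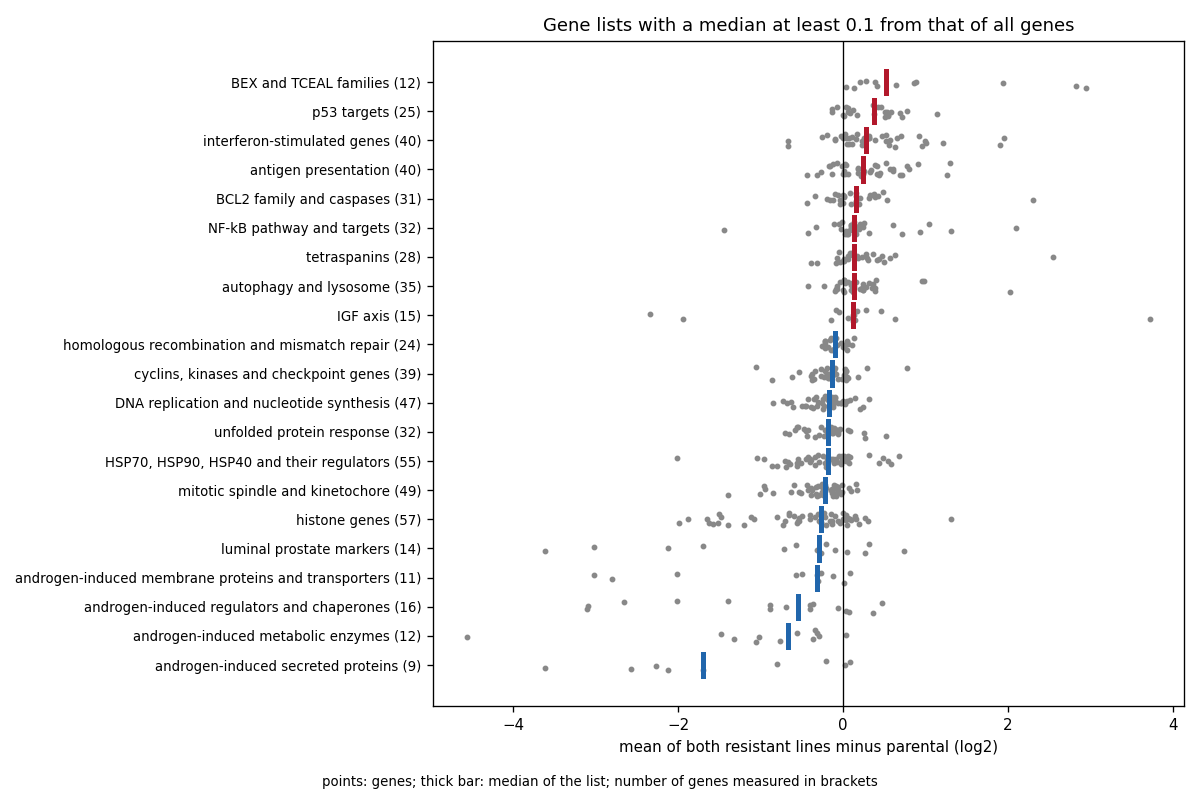
Each grey point is a gene and each thick bar the median of its list, as the mean of both resistant lines minus parental in log2 units, for the 21 of 82 lists whose median lay at least 0.1 from that of all genes. The androgen-induced secreted proteins have the lowest median, −1.70, and the BEX and TCEAL families the highest, 0.52.

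In all, 89 of the 223 shared genes (39.9%) were on any of the 82 lists, as were 3692 of the 19775 measured genes (18.7%), and 31 lists held no shared gene. The lists were chosen with earlier results of these data known, so that the larger share among shared genes is no independent evidence. Of 14 markers of prostate luminal cells, 10 had a mean below 0 and 4 of these were shared lower (KLK3, SLC45A3, MSMB and KLK2), with a list median of −0.29, or −0.16 over 10 genes without probe sets that may cross-hybridize. Of the 4 above 0, ACP3, prostatic acid phosphatase, was at 0.64 and 0.85, and the keratin gene KRT8 was at 0.32 and 0.30. The centred values do not show whether a marker is expressed, so the labelled cell type could not be checked by level. Among markers of other cell types none was shared. Their mean differences ranged from −0.46 for ITGA6 to 0.33 for ITGB4 over 8 basal markers, from −0.11 to 0.43 over 14 markers of fibroblasts and smooth muscle, and from −0.061 to 0.14 over 14 immune and endothelial markers.

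Some shared genes were matched in size to within 0.12 on the log2 scale, the SD of the gap between the lines over the bacterial controls. The median gap over all genes, without its sign, was 0.16. Among the higher genes whose probe sets all pointed one way, the smallest gaps were those of IFI27L2 at 1.08 and 1.09, GPR137B at 1.76 and 1.75, and ATP2B1-AS1 at 1.52 and 1.51. SELENBP1, a selenium-binding methanethiol oxidase, was at 1.32 and 1.33, PHYH, the peroxisomal enzyme of phytanic acid oxidation, at 1.16 and 1.18, and MBOAT1, a lysophospholipid acyltransferase, at 1.73 and 1.71. DPYSL2, a protein of axon growth, was at 1.60 and 1.57. The nuclear RNA MALAT1 was at 1.19 ± 0.55 and 1.15 ± 0.30 over 12 probe sets. Among the lower genes whose probe sets all pointed one way, after ACADL and CYP11A1, the closest were SMIM13 at −1.18 and −1.19, L3MBTL3 at −1.09 and −1.07, ENOX1 at −1.17 and −1.18, and MALT1, a protease of NF-kB signalling, at −1.16 and −1.14. PSD3 was at −1.77 ± 1.42 and −1.75 ± 1.07, so that its probe sets differed more from each other than the lines did.

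Shared genes were not spread evenly over the chromosomes. Of 401 genes measured on chromosome 13, 8 were shared lower (2.00%) and none higher, and the median mean difference of the chromosome was −0.078. On chromosome 4, 15 of 792 genes were shared lower (1.89%) and 1 was shared higher, and on chromosome 6 the counts were 13 and 2 of 1089. The X chromosome held 13 shared higher genes of 696 (1.87%) and 4 shared lower, and chromosome 1 held 18 and 7 of 1925. Chromosome Y held 3 shared lower genes of 33. Copy number was not measured in these data, and its part in these counts was not tested.

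**Figure D5:**
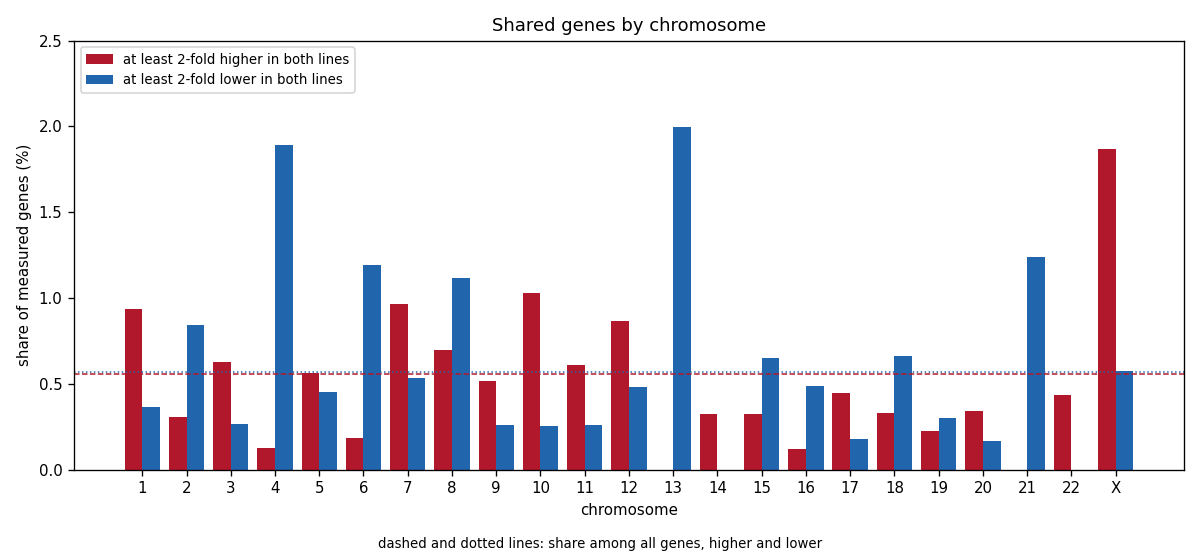
Bars show, for each autosome and X, the share in percent of measured genes that were at least 2-fold higher (red) or lower (blue) than parental in both resistant lines, with lines at 0.556% and 0.571% for all genes. The blue bars of chromosomes 4 and 13 and the red bar of X are the tallest, and each rests on 8 to 15 genes.

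In the order of measured genes along the chromosomes, 18 of the 113 shared lower genes (15.9%) stood next to another shared lower gene, and 8 of the 110 shared higher genes (7.27%) next to another shared higher gene. Of all genes with a position, 1.12% stood next to a shared lower gene and 1.12% next to a shared higher gene. The lower pairs included KLK3 and KLK2, TFPI and GULP1, GCNT1 and PRUNE2, RPS6KA3 and CNKSR2, and the higher pairs TCEAL2 and BEX5, RLN2 and RLN1, LAPTM4B and MATN2. The gene ATP2B1, a calcium pump, and its antisense RNA ATP2B1-AS1 formed another higher pair, and the array probes of such a pair may read the same locus. These pairs were named for their position after their values were seen. The median genomic length was 68.7 kb for shared lower genes, 29.2 kb for shared higher genes and 24.8 kb for all genes with a position.

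The promoters of shared genes differed little from others in base composition. The median GC content was 66.3% for 87 shared higher genes, 62.3% for 91 shared lower genes and 63.0% for all. Other motifs were counted on both strands as well. The GC box GGGCGG was in 65.5% of shared higher, 52.7% of shared lower and 58.9% of all promoters, the TATA box TATAAA in 9.20%, 8.79% and 8.76%, and CCAAT in 35.6%, 34.1% and 36.1%. The AP-1 motif TGANTCA was in 6 of 87, 1 of 91 and 5.84%, and the forkhead motif TGTTTAC in 4 of 87, 1 of 91 and 2.62%. The E2F core TTCCCGC was in 6 of 87, 6 of 91 and 8.65%. These counts are descriptions of letters in a short window and were not tested.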

How the data were processed

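Groups were taken from the sample labels, 1 array for each of the 3 lines. The authors deposited log2 values made by RMA, which corrects background, normalizes the arrays to each other and summarizes probe sets, with its version not given in the sources used here, and the deposited log2 values had been centred for each probe set. Each array's depth has no count, and the number of arrays limits the precision. Gene names came from the platform's annotation of probe sets, and RefSeq gene IDs brought the symbols up to date. The gene ID was found for 99.9% of the 41097 probe sets with 1 symbol, while 1801 had several symbols and 11721 had none here, and only the first kind was used for genes. Each gene was given the mean of its probe sets. Differences were MDVR minus parental, AbiR minus parental, their mean and their gap. A gene was shared at 2-fold in both lines and matched in size within 1.5-fold. Genes were named as the 20 per direction with the largest smaller difference and the 10 shared genes per direction with the smallest gap, both among genes whose probe sets all pointed one way, list members among the top 3 and bottom 3, and always STUB1 and NR3C1. KLK2, LIF, CCL8, H2BC11, UGT2B17 and genes named for the 2-fold line, their position or a promoter motif were named after their values were seen. The members and gene lists were chosen with earlier results of these data known. Alternatives used the median or the most variable probe set, kept genes whose probe sets pointed one way, or centred the arrays anew. Another left out probe sets that may cross-hybridize, taken as all those with the suffix _s_at, _x_at or _a_at. Counts were made in Python 3.11.15 with pandas 2.3.3 and were tested on simulated data. The simulation gave all probe sets of a gene and both lines the same shift, with independent noise of the size seen in bacterial controls. It therefore checked the counting and not the error of these arrays, where shared genes had a median SD between probe sets of 0.62. RefSeq promoters of GRCh38.p14 gave sequences, and RefSeq gene positions were used only for chromosome, length and neighbours.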

Additional observations from a re-analysis of the deposited data

Results flagged for a closer look

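Opposite directions in the lines were seen for 7 genes, which were at least 2-fold from parental on both resistant arrays but on different sides. RND3, a small GTPase-like protein, was at 1.57 in MDVR and −3.01 in AbiR, and LOC105371703 at 1.17 and −1.30. The other genes were lower in MDVR and higher in AbiR, namely NR2F1, an orphan nuclear receptor, at −1.54 and 1.75, UGT2B17 at −1.49 and 1.69, LUZP2 at −1.20 and 1.72, DIO1 at −1.06 and 1.53, and KCNQ5 at −1.41 and 1.17. These genes were chosen for that difference, which was not tested, and their means of both lines lay between −0.72 and 0.26.

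Probe sets that the annotation gives to no single gene were left out of the gene counts. Of 13522 such probe sets, 27 exceeded parental by 2-fold or more in both resistant lines and 34 were below it by as much. Of these, 20 and 21 had no symbol here, and the rest had several.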

How the results depend on the processing

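With the most variable probe set standing for each gene, which picks large differences by construction, the counts rose to 202 shared higher and 186 shared lower genes, 136 and 126 matched in size, and 390 and 351 with a mean at least 2-fold higher and lower. Under the other 5 settings every count stayed within 1.5 times. Centring on the hybridization controls, which moved the median of all genes from 0.017 to −0.062, gave 94 shared higher and 127 shared lower genes, among them all 113 found before. Leaving out probe sets that may cross-hybridize tested 16790 genes and gave 84 and 103, of which 75 and 92 were shared genes before. No median of the 21 lists at least 0.1 from all genes and no mean of a shared gene among 60 named genes changed sign. By more than the SD over the bacterial controls, 64 of the 492 list medians moved, 48 of them where genes were kept only if their probe sets pointed one way. Centring the arrays anew shifted every list median by a common amount below that SD, so that none could move there. Of the 345 values of named genes, 7 moved by more than a limit set for each gene. That limit was the SD between the gene's probe sets, or, for a gene with 1 probe set, the SD over the bacterial controls. For genes such as KLK3 the limit was wide, so that a large move could count as none. For a gene with 1 probe set, neither the median nor the most variable probe set could change the value. Keeping genes whose probe sets pointed one way left a gene's own value as it was. The number of values that moved is therefore no measure of stability. The median of the androgen-induced secreted proteins went from −1.70 to −0.034 without probe sets that may cross-hybridize. 15 named genes had no value in 1 setting. Among them PLA2G2A, ATP1B1, TUBA1A, IGFBP3, SOX9, FXYD5, ACADL and KLK3 were read only by probe sets with the suffix _s_at, _x_at or _a_at. No paired analysis was possible because each group holds 1 array. A weakly expressed gene cannot be told from a strongly expressed one here, and the array background limits how large a difference it can show. At that background in both resistant lines, a lower gene would show differences of like size, and such genes cannot be told apart here.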

Other observations

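Genes whose mean of both lines was far from parental through 1 line only are given as values. FSTL5, a secreted follistatin-like protein, was 5.59 above parental in MDVR and 0.27 in AbiR. DAPK1, a death-associated kinase, was at 4.64 in MDVR and −0.050 in AbiR. In the other direction CSTA, a cystatin that inhibits cysteine proteases, was at −4.60 in MDVR against 0.19 in AbiR, and PDZRN4 was at −0.057 in MDVR and 4.55 in AbiR. Among the genes with such a mean that were not shared, 8 higher and 5 lower genes had lines on opposite sides of parental. FSTL5, CSTA and PDZRN4 were chosen after their values were seen.

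Among shared genes, the widest gaps between the lines were those of BEX1, 14.2-fold higher in MDVR than in AbiR, and of GULP1, 8.13-fold lower in MDVR than in AbiR. GULP1, an adaptor of phagocytosis, differed by −4.22 ± 3.46 in MDVR and −1.20 ± 0.86 in AbiR over 5 probe sets.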
